A study of Homo sapiens with 6 samples.

Results

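The genes described here write, read and erase methylation of lysine 9 of histone H3 (H3K9), with the DNA methylation factors that work beside them. They were picked by name, as the rows of the count table whose gene symbol equals that of a listed member, and all 36 listed genes were found among the 56832 symbols. Poly(A)-selected RNA was measured in 6 libraries of HEK293T, a human line derived from embryonic kidney with adenovirus sequences and made to express SV40 large T antigen. There were 3 libraries of cells labelled SMARCA3 KO, SMARCA3 being the protein encoded by HLTF, and 3 libraries of WT cells, both grown in DMEM with fetal bovine serum. The labels give no targeting method, clone or culture for the KO cells, so it is not known whether they were 1 clone. They do not say that the replicates were separate cultures either, and p-values therefore reflect the spread among these samples alone, which can be technical. The series concerns SMARCA3 in connection with histone H3 ubiquitination and the H3K9me3 mark, and the question taken up here is whether mRNAs of the H3K9 machinery differed between the groups.

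H3K9 methylation marks silenced chromatin. Trimethylation at repeats and heterochromatin is placed by the SUV39H enzymes and by SETDB1, which KRAB zinc finger proteins bring to their targets through TRIM28, while the EHMT1 and EHMT2 pair places mono- and dimethylation over genes. HP1 proteins and the HUSH complex bind the methylated tail, UHRF1 couples it to DNA methylation by DNMT1, and demethylases of the KDM1 and JmjC families remove it.

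Total counts were 34395448, 36804337 and 33125811 in the SMARCA3 KO libraries and 41593655, 38825312 and 38199454 in the WT libraries. WT replicate 1 stood apart from the other WT libraries: its deviation from the group mean correlated with transcript GC content at r = -0.76 across 11807 genes, a description over genes that share a library, against r = 0.43 and 0.62 for WT replicates 2 and 3 and r = 0.51, -0.38 and -0.21 for SMARCA3 KO replicates 1 to 3. Counts of called genes are therefore also given without that library and with the GC trend removed, which was chosen after seeing the data. Of 9 markers known for this cell line, 8 had over 3 counts in every library, and their summed level ran from 241 to 244 CPM in KO libraries, against 340.0 to 362 CPM in WT libraries. VIM made up much of that sum, at 115 to 118 CPM in KO and 175 to 190.1 CPM in WT, and it is among the neighbours of SUV39H2 described below. EYA1 (3.5 to 3.9 CPM in KO, 12.5 to 15.3 CPM in WT) and KRT18 (13.3 to 14.3 CPM in KO, 27.7 to 32.8 CPM in WT) were also lower in every KO library. So were KRT8, CDH2 and NES, whereas LHX1 overlapped and PAX8 had at most 3 counts. PAX2 went the other way, at 10.7 to 10.8 CPM in KO and 4.11 to 5.31 CPM in WT. Fibroblast markers summed to 6.28 to 6.86 CPM in KO and 6.47 to 8.30 CPM in WT, with DCN at 0. Blood cell markers summed to 2.88 to 3.42 CPM in KO and 2.404 to 3.64 CPM in WT, with CD3E at 0, and epithelial markers to 3.80 to 4.20 CPM in KO and 5.46 to 6.90 CPM in WT. Their part in the results was not tested.

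HLTF, the targeted gene, whose product joins a SNF2 helicase to a RING ubiquitin ligase domain, had 141, 139.9 and 149 CPM in SMARCA3 KO libraries, against 215, 191 and 195 CPM in WT libraries. For genes, CPM is counts per 1000000 over tested genes after TMM scaling. The marker sums above and the floor below are per 1000000 of a library's total counts, without TMM. The groups did not overlap, and HLTF mRNA was lower but still abundant in every KO library (log2 fold change -0.48, SE 0.05, edgeR adjusted p = 4.65e-05; two-sided exact permutation p = 0.1, the smallest that 3 against 3 allows). The median log2 fold change of the 40 nearest expressed genes around HLTF was -0.50, and with that median removed HLTF differed by 0.03 (edgeR adjusted p = 0.661). Its mRNA level therefore does not check the label.

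All 36 members passed the filter on low counts. Mean levels over the 6 libraries ran from 8.03 CPM for KDM4D to 612 CPM for TRIM28, and counts from 272 to 24916 in a library, so none of them was near the floor of 3 counts (0.0721 to 0.0906 CPM). The coefficient of variation within a group ran from 0.14% to 15.0%, with a median of 2.91% in KO and 3.78% in WT. Counting noise is part of this spread, most of all for members with few counts such as KDM4D, and its share was not separated. In bulk RNA, fewer expressing cells and less RNA per cell cannot be told apart.

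Of the 36 members, 6 rose and 3 fell in SMARCA3 KO cells at an edgeR quasi-likelihood adjusted p under 0.05, and 27 did not pass the test. That is 25.0% of the members, against 31.8% of the 18061 genes tested (14.0% higher, 17.7% lower) and 36.9% of tested genes averaging 10 CPM or more, a level that 35 members reached. The share of members called was therefore not above the background. EHMT2, MORC2, UHRF2, KDM7A, KDM4A and CBX1 rose, and FAM208A, SUV39H2 and CBX5 fell. The median log2 fold change over the members was 0.07, beside 0.00 over all genes tested. Of the members, 25 had positive and 11 negative values, beside 9134 positive and 8927 negative over all genes tested. The CPM ranges of the groups did not overlap for 12 members higher in KO and 6 lower in KO, and this non-overlap held for 45.6% of all tested genes (21.2% higher, 24.4% lower) and for 51.2% of those averaging 10 CPM or more. Of the 36 members, 2 had a log2 fold change beyond 0.5 in either direction, namely FAM208A and SUV39H2.

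Without WT replicate 1 the edgeR test called 10 members higher and 2 lower, beside 33.6% of all genes (15.7% higher, 17.9% lower): TRIM28, ADNP, CDCA7 and KDM3A were added as higher and CBX5 was lost. With the GC trend removed it called 16 higher and 5 lower, beside 49.9% of all genes (23.1% higher, 26.8% lower), and all 9 genes remained called. With the median of the chromosomal neighbours removed it called 10 higher and 1 lower, beside 30.8% of all genes (14.9% higher, 15.9% lower), and 5 of the 9 remained called. Of the 9 calls, those of FAM208A, EHMT2 and UHRF2 held in all 16 alternative fits.

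**Figure D1:**
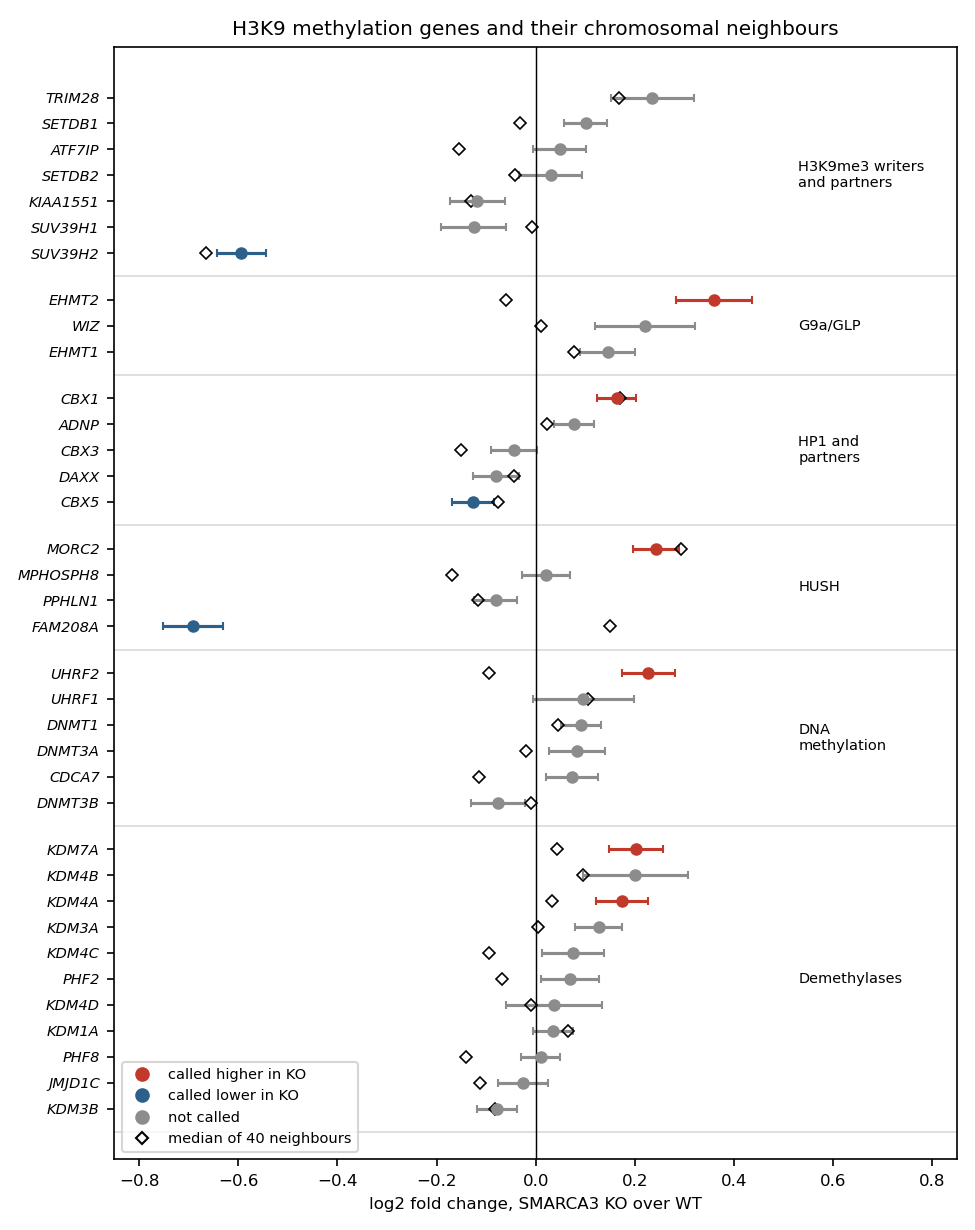
Log2 fold change of SMARCA3 KO over WT for each of the 36 genes, in groups by role, with the edgeR standard error as bars and the median of the chromosomal neighbours beside it. FAM208A at -0.69 stands far below its neighbours at 0.15, whereas SUV39H2 at -0.59 lies near its neighbours at -0.67.

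Trimethylation was represented by 7 genes, of which 0 rose and 1 fell, with a median log2 fold change of 0.03. SUV39H2, which trimethylates H3K9 in heterochromatin, had 33.4, 33.4 and 33.3 CPM in SMARCA3 KO libraries, against 51.5, 50.6 and 48.9 CPM in WT libraries. The KO libraries lay well below every WT library (log2 fold change -0.59, SE 0.05, edgeR adjusted p = 7.25e-06). SUV39H2 lies on chromosome 10 (hg38 chr10:14878820-14904315, plus strand), and each of its 40 nearest expressed genes was called lower in KO, with a median of -0.67. With that median removed, SUV39H2 differed by 0.09 (edgeR adjusted p = 0.227). Its paralog SUV39H1, on the X chromosome, had 33.2 ± 1.79 CPM in KO and 36.3 ± 2.32 CPM in WT (SD, n = 3 each), with overlapping ranges (log2 fold change -0.13, edgeR adjusted p = 0.172).

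Levels of different genes are compared per kb of all annotated exon bases of each gene, so the shares depend on the annotation as well as on the counts. On that scale SUV39H2 made up 48.7% of the summed SUV39H level in KO cells and 56.8% in WT cells. The summed level of both was 19.2 ± 0.544 CPM per kb in KO and 24.9 ± 0.318 CPM per kb in WT (SD, n = 3 each). The sum and the SUV39H2 share were lower in every KO library than in any WT library. Here and below, shares within a sum are tied, so a rise of any gene lowers the shares of the others. For levels of single genes non-overlap held for 45.6% of all tested genes, and no such background was computed for shares or sums.

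TRIM28, the corepressor that KRAB zinc finger proteins bind, had 726, 625 and 637 CPM in KO libraries, against 488, 572 and 628 CPM in WT libraries. The ranges overlapped by a little, since WT replicate 3 lay above KO replicate 2, and the difference missed the threshold (log2 fold change 0.24, SE 0.08, edgeR adjusted p = 0.0531). It passed in 7 of 16 alternative fits, with adjusted p from 1.52e-05 to 0.476, and its log2 fold change was 0.15 without WT replicate 1. SETDB1, the methyltransferase that TRIM28 recruits, had 76.3 ± 1.5 CPM in KO and 71.2 ± 1.08 CPM in WT, without overlap (log2 fold change 0.10, edgeR adjusted p = 0.101). ATF7IP, which stabilizes SETDB1, gave 0.05 and SETDB2, a related SET domain protein, gave 0.03 on the log2 scale, both with overlapping ranges. KIAA1551, known in mouse embryonic stem cells as a SETDB1 partner under the name RESF1, had 37.0 ± 1.88 CPM in KO and 40.1 ± 0.813 CPM in WT, without overlap (log2 fold change -0.12, edgeR adjusted p = 0.135).

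Of the 3 genes of the EHMT complex, EHMT2 rose and the other two did not pass the test, with a median log2 fold change of 0.22, which is the value of WIZ. EHMT2, also called G9a, had 72.0, 64.4 and 72.5 CPM in SMARCA3 KO libraries, against 48.1, 55.1 and 59.5 CPM in WT libraries. The lowest KO library lay above the highest WT library (log2 fold change 0.36, SE 0.08, edgeR adjusted p = 0.0047), and EHMT2 had the largest positive log2 fold change of the 36 members. Without WT replicate 1, its lowest library, the value was 0.29 (edgeR adjusted p = 0.000858). EHMT2 lies in the major histocompatibility region (hg38 chr6:31879759-31897687, minus strand), where its 40 nearest expressed genes had a median of -0.06, with 6 called higher and 11 lower. EHMT2 without its neighbours' median gave 0.44 (edgeR adjusted p = 0.00138).

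EHMT1, also called GLP and the partner of EHMT2, had 60.2 ± 2.76 CPM in KO and 54.4 ± 2.56 CPM in WT, without overlap (log2 fold change 0.15, edgeR adjusted p = 0.0678). Per length, EHMT2 made up 77.9% of their sum in KO and 75.2% in WT, which rests on 22217 annotated exon bases for EHMT1 and 7289 for EHMT2. In CPM the 2 genes were nearly level in WT. WIZ, a zinc finger protein of the same complex, had 98.8, 80.3 and 82.0 CPM in KO libraries, against 62.9, 78.6 and 82.6 CPM in WT libraries. For WIZ the groups overlapped, and KO replicate 1 and WT replicate 1 stood off to opposite sides (log2 fold change 0.22, SE 0.10, edgeR adjusted p = 0.125). The value for WIZ was 0.12 without WT replicate 1 and 0.13 without KO replicate 1.

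Of the 5 HP1 and HP1-associated genes, CBX1 rose, CBX5 fell and 3 did not pass the test. CBX1 (HP1 beta) had 208, 214 and 207 CPM in KO libraries, against 194, 186 and 182 CPM in WT libraries. CBX5 (HP1 alpha) had 249, 266 and 256 CPM in KO libraries, against 293, 277 and 273 CPM in WT libraries. The groups did not overlap for either gene, and the log2 fold changes were 0.16 for CBX1 (SE 0.04, edgeR adjusted p = 0.00902) and -0.13 for CBX5 (SE 0.04, edgeR adjusted p = 0.0418). The CBX5 call was lost in 11 of 16 alternative fits, with adjusted p up to 0.608, and in each fit that left out 1 library, where it ran from 0.0511 to 0.253. The call for CBX1 held in all but the fit with the neighbour median removed (log2 fold change 0.01, edgeR adjusted p = 0.889). Of the 40 neighbours of CBX1, 23 were called higher and 3 lower, with a median of 0.17. With 20 neighbours instead of 40 the median was 0.05, so the loss of the CBX1 call rests on the wider window. No fit removed the median of 20.

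CBX3 (HP1 gamma), the third HP1 gene, had 395 ± 8.71 CPM in KO and 407 ± 24.4 CPM in WT, with overlapping ranges (log2 fold change -0.04, edgeR adjusted p = 0.514). The summed level of the HP1 genes per length also overlapped between groups, at 170.1 ± 2.37 CPM per kb in KO and 167.0 ± 7.71 CPM per kb in WT (SD, n = 3 each). Within that sum CBX1 had 39.9% in KO and 36.3% in WT, CBX3 had 50.0% in KO and 52.5% in WT, and CBX5 had 10.1% in KO and 11.2% in WT, without overlap for any of them. These shares are tied to each other, and the level of CBX3 itself overlapped. ADNP, which binds HP1 and the remodeller CHD4, had 183 ± 4.24 CPM in KO and 173 ± 5.38 CPM in WT, without overlap (log2 fold change 0.08, edgeR adjusted p = 0.168). DAXX, the histone H3.3 chaperone that works with ATRX, had 87.8 ± 3.95 CPM in KO and 92.7 ± 1.62 CPM in WT, with overlap (log2 fold change -0.08, edgeR adjusted p = 0.221).

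Of the 4 HUSH genes, MORC2 rose, FAM208A fell and 2 did not pass the test. FAM208A, also called TASOR, is the subunit that holds the complex together, and it had 104, 110.4 and 114 CPM in SMARCA3 KO libraries, against 194, 169 and 168 CPM in WT libraries. Every KO library lay far below every WT library, and the difference of 38.0% was the largest fall among the 36 members (log2 fold change -0.69, SE 0.06, edgeR adjusted p = 1.09e-05). Without WT replicate 1, its highest library, the log2 fold change was -0.61 (edgeR adjusted p = 5.79e-08). FAM208A lies on the short arm of chromosome 3 (hg38 chr3:56620133-56683237, minus strand). Its 40 nearest expressed genes had a median of 0.15, with 18 called higher and 5 lower. FAM208A thus fell where its surroundings were slightly higher, and with their median removed the log2 fold change was -0.82 (edgeR adjusted p = 3.24e-06).

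CCDC66, the nearest of these neighbours on one side, runs toward FAM208A on the opposite strand, and their ends share 287 exon bases. It had 64.1 ± 2.24 CPM in KO and 57.3 ± 2.43 CPM in WT (SD, n = 3 each), and rose (log2 fold change 0.16, SE 0.05, edgeR adjusted p = 0.0323). The log2 ratio of FAM208A to CCDC66 was 0.64, 0.80 and 0.88 in KO libraries, against 1.70, 1.57 and 1.61 in WT libraries. This ratio was lower in every KO library than in any WT library (difference -0.85, two-sided exact permutation p = 0.1). SUV39H2 differed from this: its convergent neighbour DCLRE1C, which shares 159 exon bases with it on the opposite strand, fell as well (log2 fold change -0.53, edgeR adjusted p = 0.000428), and their log2 ratio overlapped between the groups (difference -0.06, two-sided exact permutation p = 0.4).

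MORC2, the ATPase that HUSH recruits to compact chromatin, had 58.5, 58.3 and 60.3 CPM in KO libraries, against 50.5, 50.3 and 48.9 CPM in WT libraries. The groups were well separated (log2 fold change 0.24, SE 0.05, edgeR adjusted p = 0.00246), but the 40 neighbours of MORC2 on chromosome 22 had a median of 0.29, with 32 called higher and 0 lower. With that median removed MORC2 differed by -0.03 (edgeR adjusted p = 0.636). C22orf27, which shares 1616 exon bases with MORC2 on the opposite strand, had 7, 5 and 9 counts in KO libraries, against 5, 1 and 1 counts in WT libraries. MPHOSPH8, the chromodomain subunit that reads the methylated tail, had 50.9 ± 0.383 CPM in KO and 50.1 ± 1.63 CPM in WT, with overlap (log2 fold change 0.02, edgeR adjusted p = 0.772). PPHLN1 (periphilin), the remaining core subunit, had 113 ± 2.32 CPM in KO and 119 ± 4.58 CPM in WT, without overlap (log2 fold change -0.08, edgeR adjusted p = 0.187). Per length, FAM208A made up 36.2% ± 0.991 of the summed core of FAM208A, MPHOSPH8 and PPHLN1 in KO and 47.3% ± 1.30 in WT, and the sum was 30.8 ± 0.642 CPM per kb in KO and 38.1 ± 2.13 CPM per kb in WT (SD, n = 3 each). Neither quantity overlapped between groups, and FAM208A, which itself fell, enters both.

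**Figure D2:**
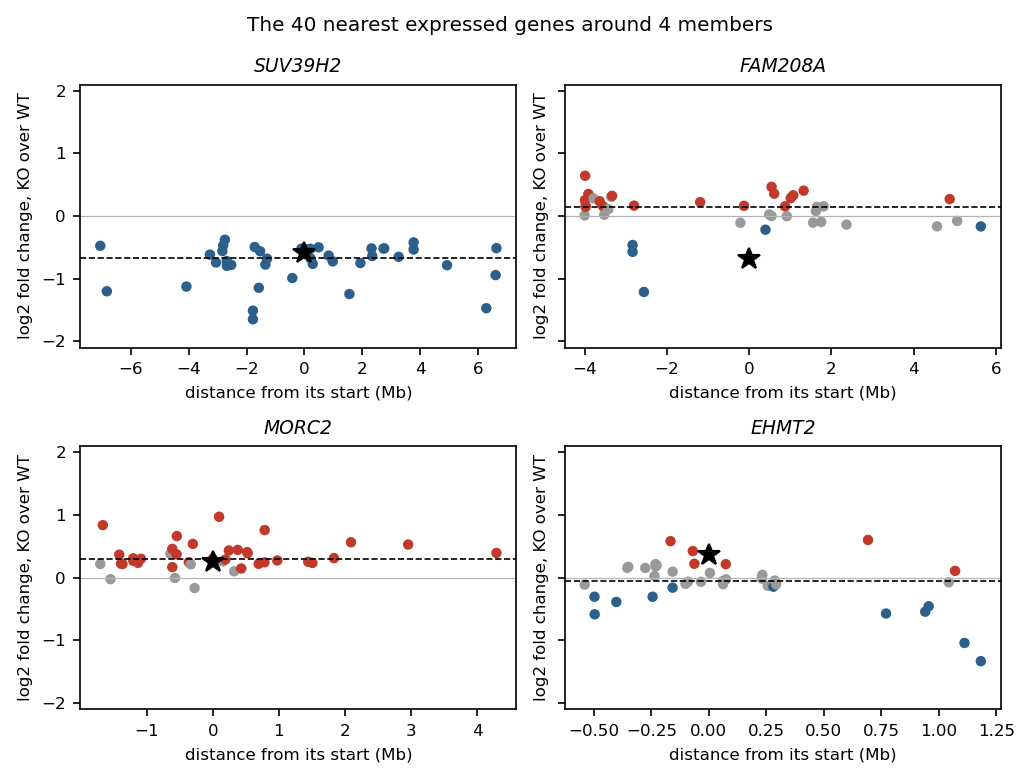
Log2 fold change of SMARCA3 KO over WT for the 40 nearest expressed genes around SUV39H2, FAM208A, MORC2 and EHMT2, by distance from the start of each member in megabases. SUV39H2 and MORC2 lie inside stretches that are lower and higher in KO as a whole, with medians of -0.67 and 0.29, and FAM208A and EHMT2 lie outside the range of most genes around them.

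Of the 6 DNA methylation genes, UHRF2 rose and 5 did not pass the test, with a median log2 fold change of 0.09. UHRF2, a paralog of UHRF1 with the same domain order, had 71.2, 71.5 and 67.8 CPM in SMARCA3 KO libraries, against 62.8, 60.8 and 56.2 CPM in WT libraries. The groups did not overlap (log2 fold change 0.23, SE 0.05, edgeR adjusted p = 0.00801). UHRF2 lies on chromosome 9 (hg38 chr9:6413151-6507054, plus strand) among neighbours with a median of -0.09, and once that median was removed UHRF2 gave a log2 fold change of 0.34 (edgeR adjusted p = 0.0011). UHRF1, which binds hemimethylated DNA and methylated H3K9, had 92.7, 77.0 and 76.5 CPM in KO libraries, against 64.5, 80.2 and 85.7 CPM in WT libraries. The UHRF1 groups overlapped widely, with replicate 1 the highest KO and the lowest WT library (log2 fold change 0.10, SE 0.10, edgeR adjusted p = 0.514), and the value was -0.01 without WT replicate 1.

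DNMT1, the maintenance methyltransferase, had 317 ± 9.31 CPM in KO and 297 ± 10.2 CPM in WT, without overlap (log2 fold change 0.09, edgeR adjusted p = 0.11). The de novo enzymes did not pass the test: DNMT3A had 28.0 ± 1.09 CPM in KO and 26.4 ± 0.367 CPM in WT (log2 fold change 0.08, edgeR adjusted p = 0.297), and DNMT3B had 49.0 ± 2.39 CPM in KO and 51.7 ± 1.62 CPM in WT (-0.08, edgeR adjusted p = 0.317). CDCA7, which brings the remodeller HELLS to chromatin, had 166 ± 1.23 CPM in KO and 158 ± 12.2 CPM in WT, with overlap because WT replicate 1 was higher than every KO library (log2 fold change 0.07, edgeR adjusted p = 0.327). Without that library it was called higher (log2 fold change 0.15, edgeR adjusted p = 0.0066). Per length, DNMT1 made up 71.4% of the sum of the DNA methyltransferases in KO and 69.4% in WT.

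Of the 11 demethylases, KDM7A and KDM4A rose, 0 fell and 9 did not pass the test, and the median log2 fold change was 0.07. KDM7A, a JmjC and PHD finger enzyme of dimethylated H3K9, had 62.6, 64.2 and 64.3 CPM in KO libraries, against 59.4, 52.9 and 53.7 CPM in WT libraries. KDM4A, an enzyme of trimethylated H3K9, had 37.3, 38.7 and 36.9 CPM in KO libraries, against 33.6, 34.0 and 32.4 CPM in WT libraries. Neither gene's groups overlapped (KDM7A log2 fold change 0.20, SE 0.05, edgeR adjusted p = 0.016; KDM4A 0.17, SE 0.05, edgeR adjusted p = 0.0266). The KDM7A call was lost without WT replicate 2, KO replicate 2 or KO replicate 3, where the adjusted p ran from 0.0601 to 0.0699, and with the replicate block (0.0535). The KDM4A call was lost when any library but WT replicate 1 was left out (adjusted p 0.0533 to 0.114), with the replicate block (0.0771) and with no filter on low counts (0.0979).

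The other 9 demethylases did not pass the test, which does not show that they were equal. KDM1A (LSD1), which acts with RCOR proteins, had 269.5 ± 8.08 CPM in KO and 263 ± 8.46 CPM in WT, and PHF8 had 109 ± 0.902 CPM in KO and 108 ± 2.77 CPM in WT, with log2 fold changes of 0.03 and 0.01 and overlap in both. KDM3A had 99.8 ± 4.28 CPM in KO and 91.4 ± 2.95 CPM in WT without overlap (log2 fold change 0.13, edgeR adjusted p = 0.0646), and its paralog KDM3B had 157 ± 2.33 CPM in KO and 166 ± 6.38 CPM in WT, also without overlap (-0.08, edgeR adjusted p = 0.176). Both remove mono- and dimethylation. Related JMJD1C had a log2 fold change of -0.03, PHF2 of 0.07, KDM4C of 0.07 and KDM4D of 0.04, each with overlapping groups and an edgeR adjusted p from 0.4 to 0.81. KDM4B had 45.5, 37.1 and 40.5 CPM in KO libraries, against 30.0, 36.5 and 40.6 CPM in WT libraries, again with replicate 1 at opposite ends and overlap between groups (log2 fold change 0.20, SE 0.11, edgeR adjusted p = 0.174). KDM4B gave 0.10 without WT replicate 1 and 0.13 without KO replicate 1.

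**Figure D3:**
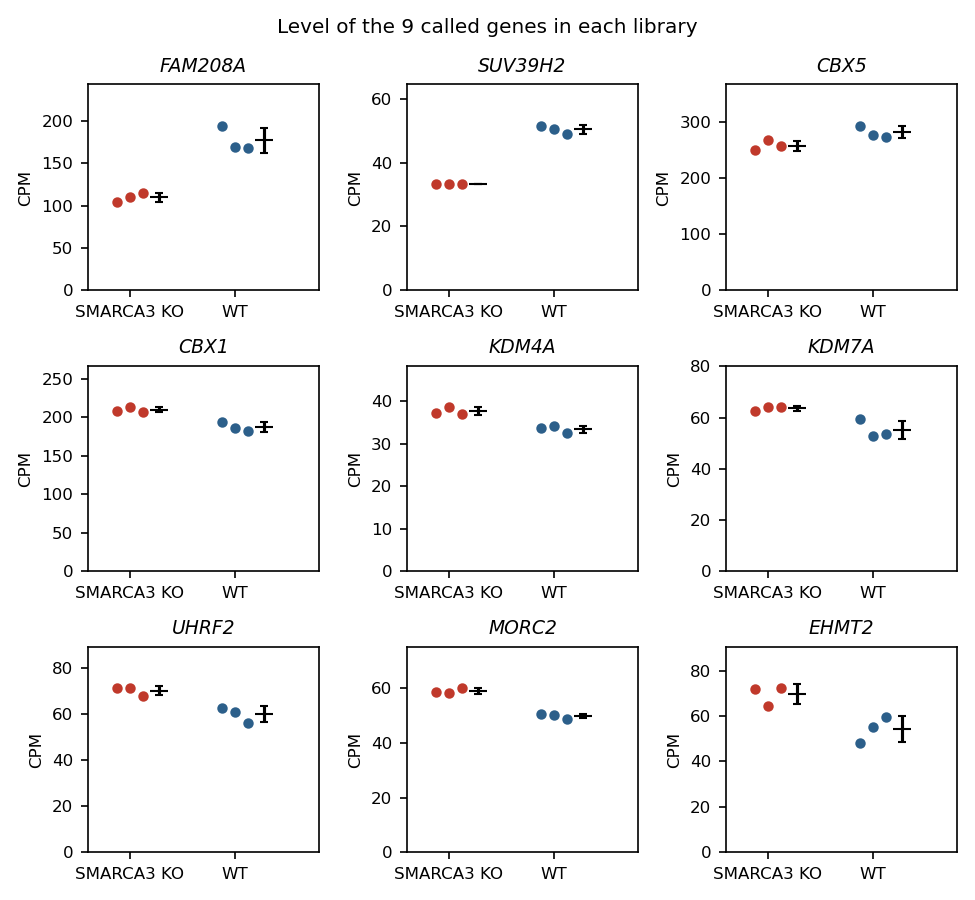
Level in CPM of the 9 members that passed the edgeR test, in each SMARCA3 KO library and each WT library, with the mean and SD (n = 3) as a mark with bars and axes that start at 0. FAM208A at 104 to 114 CPM in KO and 168 to 194 CPM in WT has the widest gap, and CBX5 at 249 to 266 CPM in KO and 273 to 293 CPM in WT a narrow one.

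The spread between replicates of several members moved with GC content. Across the 36 members, whose transcripts have a mean GC content of 37.1% to 63.8%, the deviation of replicate 1 from the other replicates correlated with GC at r = 0.70 in KO and r = -0.86 in WT, as a description over genes that share these libraries. TRIM28 (59.5% GC), WIZ (63.8%), UHRF1 (58.1%) and KDM4B (60.2%) were each highest in KO replicate 1 and lowest in WT replicate 1. EHMT2 (58.6%) was also lowest in WT replicate 1, but not highest in KO replicate 1. FAM208A, at 37.1% GC the lowest of all members, was highest in WT replicate 1 and lowest in KO replicate 1. With the GC trend removed, the log2 fold changes were -0.63 for FAM208A, -0.54 for SUV39H2, 0.31 for EHMT2, 0.28 for UHRF2 and 0.18 for TRIM28, and all of these passed the edgeR test, with adjusted p = 0.000546 for TRIM28. The part of GC content in the difference between groups was not tested beyond this.

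**Figure D4:**
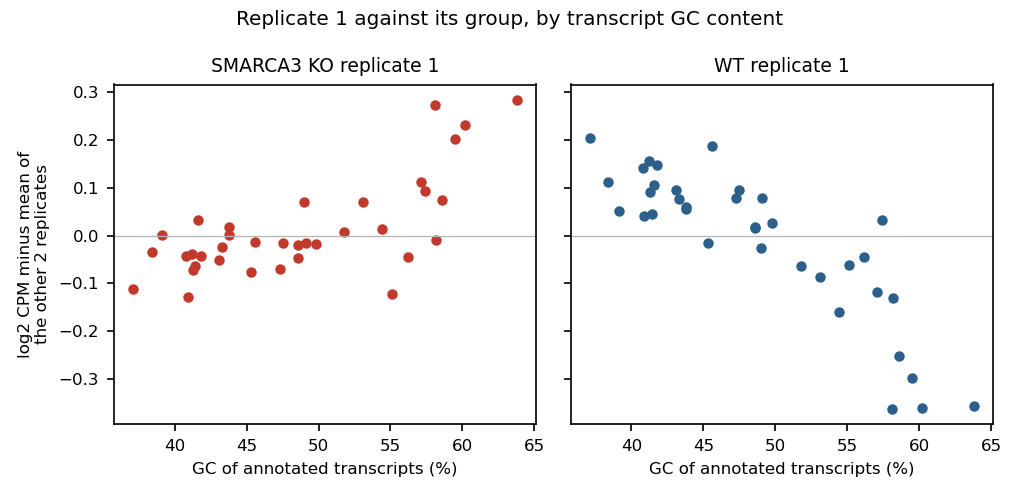
Deviation of replicate 1 from the mean of the other 2 replicates of its group (log2 CPM) against the GC content of the annotated transcripts, for the 36 members in SMARCA3 KO and in WT. The points climb with GC in KO (r = 0.70) and descend with GC in WT (r = -0.86).

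Ratios of paralogs within a library do not depend on library scaling, and 12 pairs were compared. Each difference is the mean log2 ratio in SMARCA3 KO minus that in WT, taken per length with 0.5 added to the counts. In 9 pairs the ratios did not overlap between groups, each with a two-sided exact permutation p = 0.1, the smallest possible, or 0.133 after Benjamini-Hochberg adjustment over the 12. For levels of single genes such non-overlap held for 45.6% of all tested genes, and no such share was computed for ratios. SUV39H2 over SUV39H1 was -0.07, -0.16 and 0.00 in KO libraries, against 0.51, 0.41 and 0.25 in WT libraries (difference -0.47). CBX5 over CBX1 was -2.03, -1.97 and -1.98 in KO libraries, against -1.69, -1.71 and -1.70 in WT libraries (difference -0.29). EHMT2 over EHMT1 was 1.79, 1.76 and 1.90 in KO libraries, against 1.51, 1.596 and 1.69 in WT libraries (difference 0.22). These 3 ratios were thus set apart between groups in every library. The CBX5 to CBX1 ratio had a narrow spread within each group beside log2 fold changes of -0.13 for CBX5 and 0.16 for CBX1. The ratios take neither GC content nor the chromosomal neighbours into account. GC content is 39.1% for SUV39H2 and 58.2% for SUV39H1, 41.3% for CBX5 and 49.1% for CBX1, and 58.6% for EHMT2 and 57.1% for EHMT1. With the GC trend removed, the log2 fold changes in that order were -0.54, -0.17, -0.08, 0.18, 0.31 and 0.11. Neighbour medians were -0.67 for SUV39H2 and -0.01 for SUV39H1, and -0.08 for CBX5 and 0.17 for CBX1 (-0.12 and 0.05 with 20 neighbours). They were -0.06 for EHMT2 and 0.08 for EHMT1. With these medians removed, EHMT2 alone of these genes was called by edgeR. The part of GC content and of the neighbourhoods in the ratios was not tested.

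The further pairs without overlap were CBX3 over CBX1 (difference -0.21), KDM3B over KDM3A (-0.20), KDM7A over PHF8 (0.19), DNMT3B over DNMT3A (-0.16), KDM4C over KDM4A (-0.10) and SETDB2 over SETDB1 (-0.07). Ratios overlapped for UHRF2 over UHRF1 (difference 0.13, two-sided exact permutation p = 0.6), PHF2 over PHF8 (0.06, exact p = 0.4) and KDM4B over KDM4A (0.03, exact p = 0.9). In the UHRF pair the WT ratios alone ran from -1.56 to -0.99, a wider range than the difference between groups.

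**Figure D5:**
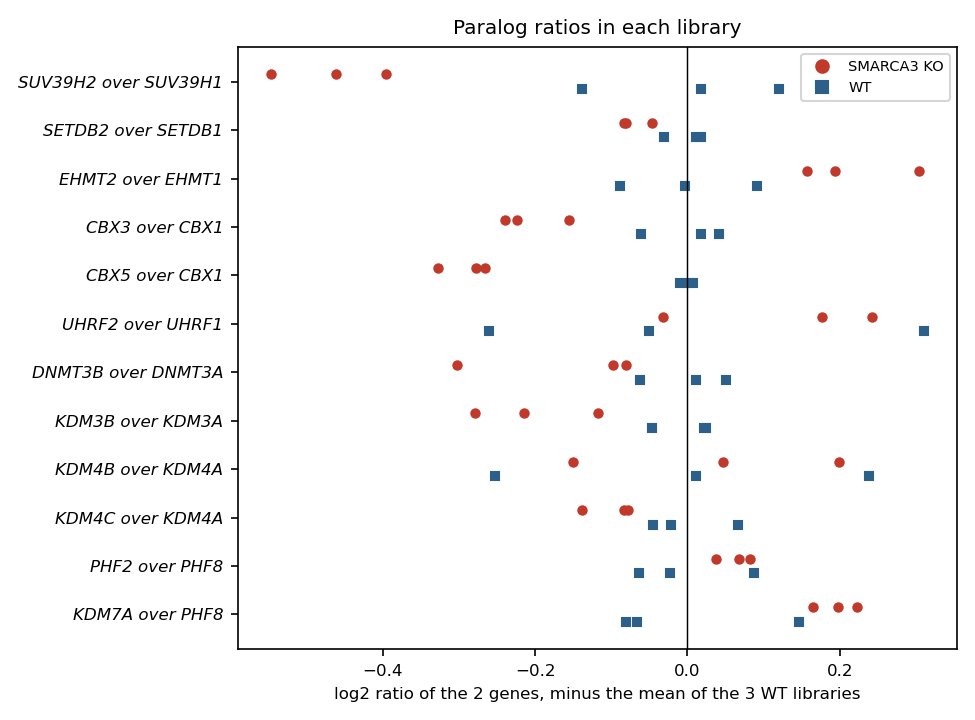
Log2 ratio of each of 12 paralog pairs in each SMARCA3 KO and each WT library, shown relative to the mean of the 3 WT libraries. The SUV39H2 to SUV39H1 ratio lies furthest below WT (mean difference -0.47), EHMT2 to EHMT1 furthest above among pairs without overlap (0.22), and UHRF2 to UHRF1 overlaps.

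Genes that share exon bases or a start region with a member gave further within-library ratios. They were taken for some of the tested partners only, and C2, C9orf37, REEP3, CWC15 and S1PR2 were among those left out. For levels of single genes, non-overlap held for 45.6% of all tested genes, and no such share was computed for these ratios. CBX5 starts 60 bases from HNRNPA1, a splicing factor gene on the other strand, and the log2 ratio of CBX5 to HNRNPA1 was -2.97, -2.94 and -2.94 in KO libraries, against -2.64, -2.69 and -2.67 in WT libraries. The groups did not overlap (difference -0.29, two-sided exact permutation p = 0.1), and HNRNPA1 itself rose (log2 fold change 0.16, edgeR adjusted p = 0.00772). SETDB2 over CAB39L differed by 0.40 and PPHLN1 over PRICKLE1 by 0.29, both without overlap (exact permutation p = 0.1). In these pairs the partner was the gene that passed the test: CAB39L fell (-0.36, edgeR adjusted p = 0.03) and PRICKLE1 fell (-0.37, edgeR adjusted p = 0.0225), beside 0.03 for SETDB2 and -0.08 for PPHLN1. The ratios of PPHLN1 over YAF2, CBX3 over HNRNPA2B1 and SETDB1 over CERS2 overlapped between groups, with differences of 0.05, 0.00 and 0.00. Of the 36 members, 17 share exon bases with another annotated gene, and 13 of them with one on the other strand. The strand setting of the counting is unknown, and reads of such pairs may not have been told apart.

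The promoters of 4 members are printed to show the sequence at the start of genes called in all alternative fits (FAM208A, EHMT2 and UHRF2) and of SUV39H2, which fell together with its neighbours. They are the RefSeq sequences from GRCh38.p14, from 250 bases before to 50 after the annotated start, 5′ to 3′ on the gene's strand. Capitals mark matches on either strand to the motifs searched. FAM208A spans chr3:56683216-56683515 (minus strand), SUV39H2 chr10:14878616-14878915 (plus), EHMT2 chr6:31897649-31897948 (minus) and UHRF2 chr9:6412949-6413248 (plus).
FAM208A: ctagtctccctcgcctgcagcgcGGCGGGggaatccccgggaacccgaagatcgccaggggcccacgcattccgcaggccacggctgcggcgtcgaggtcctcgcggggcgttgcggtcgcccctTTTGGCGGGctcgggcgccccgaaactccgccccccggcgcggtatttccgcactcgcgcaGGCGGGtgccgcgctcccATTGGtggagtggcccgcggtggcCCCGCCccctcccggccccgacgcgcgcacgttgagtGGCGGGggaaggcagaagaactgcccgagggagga
SUV39H2: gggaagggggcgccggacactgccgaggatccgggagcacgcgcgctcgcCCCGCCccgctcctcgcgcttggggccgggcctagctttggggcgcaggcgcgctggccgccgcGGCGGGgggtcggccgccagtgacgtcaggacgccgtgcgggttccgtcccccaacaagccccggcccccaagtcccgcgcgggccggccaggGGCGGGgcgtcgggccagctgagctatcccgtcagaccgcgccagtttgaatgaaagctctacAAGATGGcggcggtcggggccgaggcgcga
EHMT2: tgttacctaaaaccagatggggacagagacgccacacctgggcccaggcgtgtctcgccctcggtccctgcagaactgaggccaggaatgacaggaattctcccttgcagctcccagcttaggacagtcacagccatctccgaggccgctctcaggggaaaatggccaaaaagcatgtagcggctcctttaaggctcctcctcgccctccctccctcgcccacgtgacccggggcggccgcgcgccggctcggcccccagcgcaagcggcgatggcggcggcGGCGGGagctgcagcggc
UHRF2: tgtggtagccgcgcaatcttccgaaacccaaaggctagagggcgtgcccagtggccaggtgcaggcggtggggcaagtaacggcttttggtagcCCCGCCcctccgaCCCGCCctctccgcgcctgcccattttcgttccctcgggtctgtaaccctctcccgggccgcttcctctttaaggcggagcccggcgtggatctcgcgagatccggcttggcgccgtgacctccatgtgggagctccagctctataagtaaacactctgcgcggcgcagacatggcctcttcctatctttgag

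The searched motifs were the GC box, spelled GGCGGG, the NF-Y box, spelled CCAAT, an ETS core, spelled CCGGAA, a first E2F form, spelled TTTGGCG, a second E2F form, spelled TTTCGCG, an NRF1 core, spelled GCATGCG, and a YY1 core, spelled AAGATGG. FAM208A has 5 GC boxes, of which 1 overlaps a match to the first E2F form, and 1 NF-Y box on the opposite strand. SUV39H2 has 3 GC boxes and 1 YY1 core, EHMT2 has 1 GC box and UHRF2 has 2. The windows differ in CpG content, with 43 CpG in FAM208A and 44 in SUV39H2, against 25 in EHMT2 and 26 in UHRF2. Over all 9 called members CpG counts did not follow direction: CBX5, which fell, has 25, and of those that rose KDM7A has 56, CBX1 38, MORC2 35 and KDM4A 21.

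Of the 36 members, 34 matched a promoter in that table, the exceptions being TRIM28 and DAXX. Their median was 29 CpG per window, with a range of 1 to 56, beside a median of 14 in all 35116 promoters. GC boxes were found in 73.5% of member promoters and 45.0% of all promoters, the NF-Y box in 38.2% and 34.6%, and the ETS core in 17.6% and 17.2%. The first E2F form was found in 8.82% of member promoters and 1.92% of all promoters, the second in 5.88% and 1.32%, the NRF1 core in 11.8% and 3.91%, and the YY1 core in 8.82% and 5.84%. Only the first listed window of each gene was used, and some lie inside the gene as annotated by GENCODE. That of PHF8, with 1 CpG, is chrX:54045087-54045386 in a gene at chrX:53936676-54048958 (minus strand), and that of JMJD1C is likewise inside its gene. The full set of promoters was not restricted to expressed genes, whereas every member passed the filter on low counts. A match is a description of letters in a window, not a bound site.

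Beyond the 36 members, 54 further genes of the pathway were looked up, of which 50 were tested. Of these, 7 rose and 10 fell in SMARCA3 KO cells (34.0%, beside 31.8% of all tested genes). SP100, DNMT3L, HR and KDM4E did not pass the filter on low counts. Among 14 other writers and cofactors, 2 rose and 3 fell. PRDM16, a PRDM family methyltransferase, had 22.7 ± 2.94 CPM in KO and 12.5 ± 1.67 CPM in WT (log2 fold change 0.86, SE 0.11, edgeR adjusted p = 0.000211). Its relative MECOM had 22.4 ± 0.787 CPM in KO and 33.7 ± 3.27 CPM in WT (log2 fold change -0.59, SE 0.07, edgeR adjusted p = 0.00016), among neighbours with a median of -0.71 on the same arm as HLTF. With the neighbour median removed, MECOM gave 0.13 (edgeR adjusted p = 0.218) and PRDM16 0.76 (edgeR adjusted p = 0.000458), so the fall of MECOM was lost and the rise of PRDM16 was not. MBD1, a methyl-CpG protein that works with SETDB1, rose (0.22, edgeR adjusted p = 0.021, called in 12 of 16 alternative fits), and CHAF1B, a subunit of the CAF-1 histone chaperone, fell (-0.20, edgeR adjusted p = 0.00337).

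Of 16 other readers and silencers tested, 3 rose and 1 fell. POGZ, a zinc finger protein that binds HP1, had 145 ± 5.61 CPM in KO and 121 ± 3.22 CPM in WT (log2 fold change 0.27, edgeR adjusted p = 0.000918). SMCHD1, a structural silencer of the inactive X chromosome, rose by 0.19 on the log2 scale (edgeR adjusted p = 0.00782). FAM208B (TASOR2), the paralog of FAM208A, had 214 ± 5.19 CPM in KO and 298 ± 8.42 CPM in WT (log2 fold change -0.48, SE 0.04, edgeR adjusted p = 6.13e-06). Both TASOR paralogs fell, but FAM208B lies on chromosome 10 among neighbours with a median of -0.60. With that median removed as a fixed value, FAM208B gave a log2 fold change of 0.14 (edgeR adjusted p = 0.0257, which leaves out the spread among the neighbours). Of 11 genes of DNA demethylation and methyl-CpG reading, 1 rose (MBD4, a glycosylase, 0.15, edgeR adjusted p = 0.0261) and 4 fell, among them TDG, the glycosylase of oxidized methylcytosine (-0.19, edgeR adjusted p = 0.00884), and ZBTB4, a methyl-CpG zinc finger protein (-0.29, edgeR adjusted p = 0.0154). The call for MBD4 held in 9 of 16 alternative fits (adjusted p up to 0.129), that for TDG in 14, being lost with the neighbour median removed (-0.08, edgeR adjusted p = 0.203), and that for ZBTB4 in 12 (up to 0.0657). Of 9 further demethylase factors, RCOR2, a partner of KDM1A, rose (0.35, edgeR adjusted p = 0.0149), and GSE1 (-0.43, edgeR adjusted p = 3.13e-05) and ZMYM3 (-0.21, edgeR adjusted p = 0.0048), which belong to KDM1A complexes, fell. The RCOR2 call held in 12 of 16 alternative fits (adjusted p up to 0.212), and those of GSE1 and ZMYM3 in all 16.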

How the data were processed

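Poly(A)-selected RNA from 3 SMARCA3 KO and 3 WT samples was made into stranded libraries, per the labels' protocols. The authors deposited raw counts, whole numbers per gene symbol and library, not normalized. Trim Galore, STAR 2.4, Picard, HTSeq 0.9.1, DESeq2 and hg38 are named, per the submitters' processing notes, without roles. The sources used here give neither the annotation release nor the strand setting.

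Columns were assigned by the column names in the labels. The test was that of edgeR 4.0.16, run in R 4.3.3 (filterByExpr, 18061 genes; TMM factors 0.997 to 1.005; quasi-likelihood F test; two-sided p, Benjamini-Hochberg over all tested genes, threshold 0.05). The common biological coefficient of variation was 6.12%. SE is the size of the log2 fold change divided by the square root of F. The floors cover counting error only, whereas SE, through the quasi-likelihood F, also takes in the spread among libraries. Replicates of a group differed beyond sampling noise, with a chi-square of 3.60 to 15.3 per degree of freedom. Each library was entered as 1 unit in the tests, and this excess does not show that the libraries were independent cultures.

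Gene positions, exon lengths and GC content came from the GENCODE v29 annotation of hg38, matched for 80.1% of tested genes and 36 of 36 members. Neighbours are up to 40 positioned genes (20 each side, mean of at least 2 CPM; fewer near chromosome ends, namely 39 for UHRF2, 23 for TRIM28, 22 for EHMT1 and 20 for MPHOSPH8). Neighbour medians were removed as a fixed offset in the KO libraries, so p-values of that fit leave out the spread among the neighbours. The GC trend was a lowess of each library's deviation on transcript GC. Genes without a position or GC value were left out of those fits.

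Members and lists were chosen with earlier results of these data known. Named genes are all 36 members, HLTF and, from each pathway list, up to 2 called genes per direction with the smallest p. Genes named as overlapping or divergent partners were chosen by position. Alternatives were DESeq2 1.42.0, limma-voom (limma 3.58.1), scaling by RLE or by library size alone, no filter or 1 CPM in 3 libraries, robust dispersion, a replicate block, leaving out each library, neighbour median removed, a threshold of 0.01, ratio offsets of 2 counts, 20 neighbours and, added after seeing the data, GC trend removed. The tests were checked on simulated data.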

Additional observations from a re-analysis of the deposited data

How the results depend on the processing

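Across members and alternatives, 536 log2 fold changes kept their direction and their side of the threshold, 26 lost and 34 gained the call, and 16 changed direction. With libraries left out one at a time, members called higher ran from 4 to 10 (the 10 without WT replicate 1) and lower stayed at 2, and further pathway genes called higher ran from 3 to 10 and lower from 6 to 10. With the neighbour median removed, 10 members were higher and 1 lower, 12 further pathway genes higher and 6 lower, and HLTF gave 0.034. That fit also turned SUV39H2 (0.087), KIAA1551 (0.031), CBX3 (0.124), PPHLN1 (0.052), MORC2 (-0.034), KDM1A (-0.014), KDM3B (0.021) and JMJD1C (0.103), the median being subtracted by construction. With the GC trend removed, 16 members were higher and 5 lower, 15 further pathway genes were higher, and CBX3 (0.0054) and JMJD1C (0.028) turned. At a threshold of 0.01, 1421 genes were higher and 2056 lower, with 3 further pathway genes higher. Leaving out 1 library gave ranges across 0 for CBX3 (-0.071 to 0.016), UHRF1 (-0.0052 to 0.188), JMJD1C (-0.041 to 0.023), PHF8 (-0.00045 to 0.028), KDM4D (-0.013 to 0.114), UHRF2 over UHRF1 (-0.0011 to 0.284) and KDM4B over KDM4A (-0.093 to 0.153). The turn came without WT replicate 1 for CBX3, UHRF1, JMJD1C and PHF8, without WT replicate 2 or KO replicate 3 for KDM4D, without WT replicate 3 for the UHRF pair, and without KO or WT replicate 1 for the KDM4 pair. None of these turned values passed a test, and the cause was not tested. With 20 instead of 40 neighbours, 21 of 36 neighbour medians moved and 15 did not.

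With the replicate block, 4 members were higher and 2 lower, and 6 of the 9 remained called, the calls of CBX5, KDM4A and KDM7A being lost. Deviations of same-numbered libraries correlated at -0.72, -0.21 and -0.20, which gave no sign of pairing by number. The deviation of replicate 1 followed GC content in opposite directions (r = 0.51 in KO and -0.76 in WT), so this check cannot exclude pairing. Every member had at least 272 counts in each library, and the precision rests on these counts and on the 3 libraries per group. Clone or culture and genotype cannot be told apart from the labels.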
